A study of Homo sapiens with 24 samples.

Results

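Aminoacyl-tRNA synthetases are the enzymes that attach each amino acid to its transfer RNA (tRNA) before translation. Their transcripts were followed in 2 human lung adenocarcinoma cell lines treated with Pirfenidone, an oral anti-fibrotic drug. Members were found by name: every array probe whose gene name is one of 20 cytosolic synthetases (AARS, CARS, DARS, EPRS, FARSA, FARSB, GARS, HARS, IARS, KARS, LARS, MARS, NARS, QARS, RARS, SARS, TARS, VARS, WARS and YARS) or one of 16 mitochondrial synthetases, whose names end in 2. This gave 36 genes of the 25992 gene symbols on the array, measured by 40 probes, and where a gene had several probes the brightest stood for it. The rule uses gene names alone. A549 and H1975 cells were cultured with 0.75 mg/ml Pirfenidone (Pirf) or with PBS in the volume of the drug, for 6 h or 24 h. The concentration is that of the sample labels. Legends of the study name a higher one for some experiments, among them A549 transcriptome data from 6 h to 24 h. The dose of these arrays is therefore given on the labels' word. The 8 groups held 3 samples each, and total RNA of each sample was labelled with Cy3 and hybridised to 1 one-color Agilent array. Both lines carry their own tumour genetics, so each is a model of 1 tumour only.

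In the cytosol a synthetase activates its amino acid with ATP and transfers it to the matching tRNA, which the elongation factor then carries to the ribosome. Mitochondria translate their own small set of messages and import a second set of synthetases, each encoded by a nuclear gene of its own, while GARS and KARS serve both compartments and EPRS joins the glutamate and proline enzymes in 1 protein. Uncharged tRNA activates the kinase GCN2, which slows translation, favours translation of the transcription factor ATF4, and thereby raises many cytosolic synthetase genes together with amino acid synthesis and transport genes. Arrays of RNA measure the transcripts, not the enzymes or the charging of tRNA.

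All 36 genes could be tested. On each of the 24 arrays 35 of them exceeded background clearly by the scanner software's own flag, and MARS2, the mitochondrial methionine enzyme, did so on 23. Values are log2 signals minus the 75th percentile of the array, so 0 is the level of a bright probe, and a probe is compared only with itself between groups. On this scale the members lay between -6.76 and 4.82. Over the arrays, 62.7% to 69.5% of probes were well above background and no spot was saturated. Marker genes of 4 cell types were read as a check of the labels. The epithelial markers EPCAM, CDH1, KRT7, KRT8, KRT18 and KRT19 were above background on all 12 arrays of each line, as were the leukocyte markers CD14 and CD68, while the fibroblast marker DCN was above background on no array. Of 4 leukocyte markers tested 1 was lower by the adjusted p (limma) in H1975 at 24 h, and its part in the results was not tested. All 4 conditions of a replicate shared 1 slide in A549, and the place on the slide went with treatment and time in both lines, so place and treatment cannot be told apart. The A549 pair of replicate 3 at 24 h stood apart. Over 20 mitosis genes its median difference, Pirfenidone minus PBS, was 1.51, against -0.25 and -0.86 in the pairs of replicates 1 and 2, and the array labelled PBS was the low one (-1.31 relative to all arrays, against 0.16 and 0.31 for the other PBS arrays). These labels are used as given. The A549 values at 24 h include the pair unless stated otherwise, and the class counts, same-amino-acid pairs and motif medians were not computed without it.

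The main comparison asks what Pirfenidone did to these transcripts at each time in each line. A gene is said to have risen or fallen where its adjusted p (limma, Benjamini-Hochberg over all 23827 probes tested) was 0.05 or less, and changes of at least 2-fold are counted separately. No synthetase reached 2-fold in any of the 4 comparisons, although some probes passed both limits. Their share of all probes was 0.176% at 6 h and 0.0126% at 24 h for A549, and 0.491% at 6 h and 1.89% at 24 h for H1975. The synthetase changes that passed the adjusted p were between 1.32-fold and 1.73-fold in size. In fits to only the arrays compared, the counts past the adjusted p were 0 for A549 at 6 h, 0 for H1975 at 6 h and 1 for H1975 at 24 h, where the fit over all 8 groups gave 2, 2 and 10. With date as a block in the fit over all groups they were 4, 5 and 16. Deviations of arrays that share a date correlated at 0.72, 0.46 and 0.53 for H1975 at 24 h and at 0.82, 0.50 and 0.70 at 6 h, and for A549 at 0.64, 0.70 and 0.58 at 6 h.

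H1975 cells at 24 h showed the most changes. Of the 20 cytosolic synthetases, 9 rose (AARS, CARS, EPRS, GARS, IARS, SARS, TARS, WARS and YARS), 1 fell (HARS) and 10 did not pass. None of the 16 mitochondrial synthetases passed the adjusted p. Over all probes 6.26% passed, 2.91% upwards and 3.35% downwards. At an unadjusted p under 0.05, 9 cytosolic members were higher and 4 lower, and 3 mitochondrial members were lower, against 11.1% of all probes higher and 10.8% lower.

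WARS, which charges tRNA with tryptophan and is also known as an interferon-induced gene, had log2 signals of 2.50, 2.48 and 2.55 on the PBS arrays and 3.11, 3.15 and 3.64 on the Pirfenidone arrays at 24 h. Its groups were apart by more than their ranges, and replicate 3 of the treated group was the highest. The change was 0.79 ± 0.12 (log2, SE, n = 3 against 3, 1.73-fold), with an adjusted p of 0.00185 by limma. AARS, the alanine enzyme, went from 1.11, 1.14 and 1.28 to 1.84, 1.85 and 2.14. The AARS probe lies at chr16:70287876-70287935, the WARS probe at chr14:100801041-100801100 and the HARS probe at chr5:140053737-140053796 (hg19, minus strand), and no hg19 annotation was used here. The AARS values are a change of 0.77 ± 0.10 (1.70-fold, limma adjusted p = 0.00051), with differences of 0.86, 0.73 and 0.71 in the 3 pairs that share a date. CARS, the cysteine enzyme, went from -0.90, -0.75 and -1.0 to -0.17, -0.18 and -0.10, with treated arrays that differed little among themselves. Its change was 0.73 ± 0.12 (1.66-fold, limma adjusted p = 0.0033). GARS, the glycine enzyme of both compartments, went from 1.36, 1.54 and 1.53 to 2.03, 2.16 and 2.57, a change of 0.78 ± 0.15 (1.71-fold, limma adjusted p = 0.00773). SARS, the serine enzyme, went from 3.52, 3.60 and 3.72 to 4.04, 4.12 and 4.37. The change was 0.57 ± 0.11 (1.48-fold, limma adjusted p = 0.00738), but a second, much dimmer SARS probe gave 0.23 ± 0.18 with an adjusted p of 0.517.

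The other 4 cytosolic members that rose changed less. YARS, the tyrosine enzyme, changed by 0.55, EPRS by 0.46, IARS, the isoleucine enzyme, by 0.40 and TARS, the threonine enzyme, by 0.40. Their limma adjusted p-values were between 0.0078 and 0.0416. The other IARS probes gave 0.30 and 0.57, with adjusted p-values of 0.515 and 0.0554 by limma. HARS, the histidine enzyme, was the member that fell. Its PBS arrays at 24 h read 2.21, 2.02 and 2.09 and its Pirfenidone arrays 1.63, 1.57 and 1.40, a fall of 1.49-fold (log2 -0.57 ± 0.15, limma adjusted p = 0.0338). HARS2, its mitochondrial counterpart, read 0.86, 0.89 and 1.17 with PBS and 0.90, 0.82 and 1.1 with Pirfenidone, and its change was -0.03 (95% confidence interval -0.31 to 0.24). These neighbouring genes run in opposite directions on chromosome 5 from start sites 85 bases apart, and their promoter windows share 184 bases.

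Replicate 3 of the treated group in H1975 at 24 h weighed on these values. Without that array GARS, SARS and YARS had limma adjusted p-values of 0.0613, 0.0585 and 0.0607, and the count of synthetases past the adjusted p fell from 10 to its lowest value under any single omission, 3. HARS did not pass without any 1 of the 6 arrays of its comparison, with adjusted p-values up to 0.169 in limma. EPRS was lost without PBS replicate 1 or treated replicate 3, IARS without 5 single arrays and TARS without 11. AARS, CARS and WARS passed with any 1 of the 24 arrays left out. The median of the 20 mitosis genes was -1.47 on that array, against -0.72 and -0.78 on the other treated arrays, and the part of the mitosis genes in these results was not tested.

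Among the mitochondrial members no difference passed in H1975 at 24 h, and the values of the counterparts are given for comparison. SARS2 read -0.04, -0.06 and -0.30 with PBS and -0.48, -0.52 and -0.91 with Pirfenidone, a difference of -0.50 ± 0.16 that missed the threshold (limma adjusted p = 0.0606). TARS2, the threonine enzyme, differed by -0.49 (adjusted p = 0.0719) and CARS2, the cysteine enzyme, by -0.33 (adjusted p = 0.0876) in the same limma fit. CARS2 read 4.42, 4.42 and 4.5 with PBS and 4.24, 4.22 and 3.89 with Pirfenidone. AARS2, the mitochondrial alanine enzyme, read 0.23, -0.38 and -0.21 with PBS and -0.30, -0.36 and -0.40 with Pirfenidone. WARS2 read -0.46, -0.15 and -0.47 with PBS and -0.46, -0.35 and -0.92 with Pirfenidone. AARS2 differed by -0.24 (95% confidence interval -0.54 to 0.07) and WARS2 by -0.22 (-0.56 to 0.12), with groups that overlapped. The remaining mitochondrial members lay between -0.39 for MARS2 and 0.02 for PARS2.

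**Figure D1:**
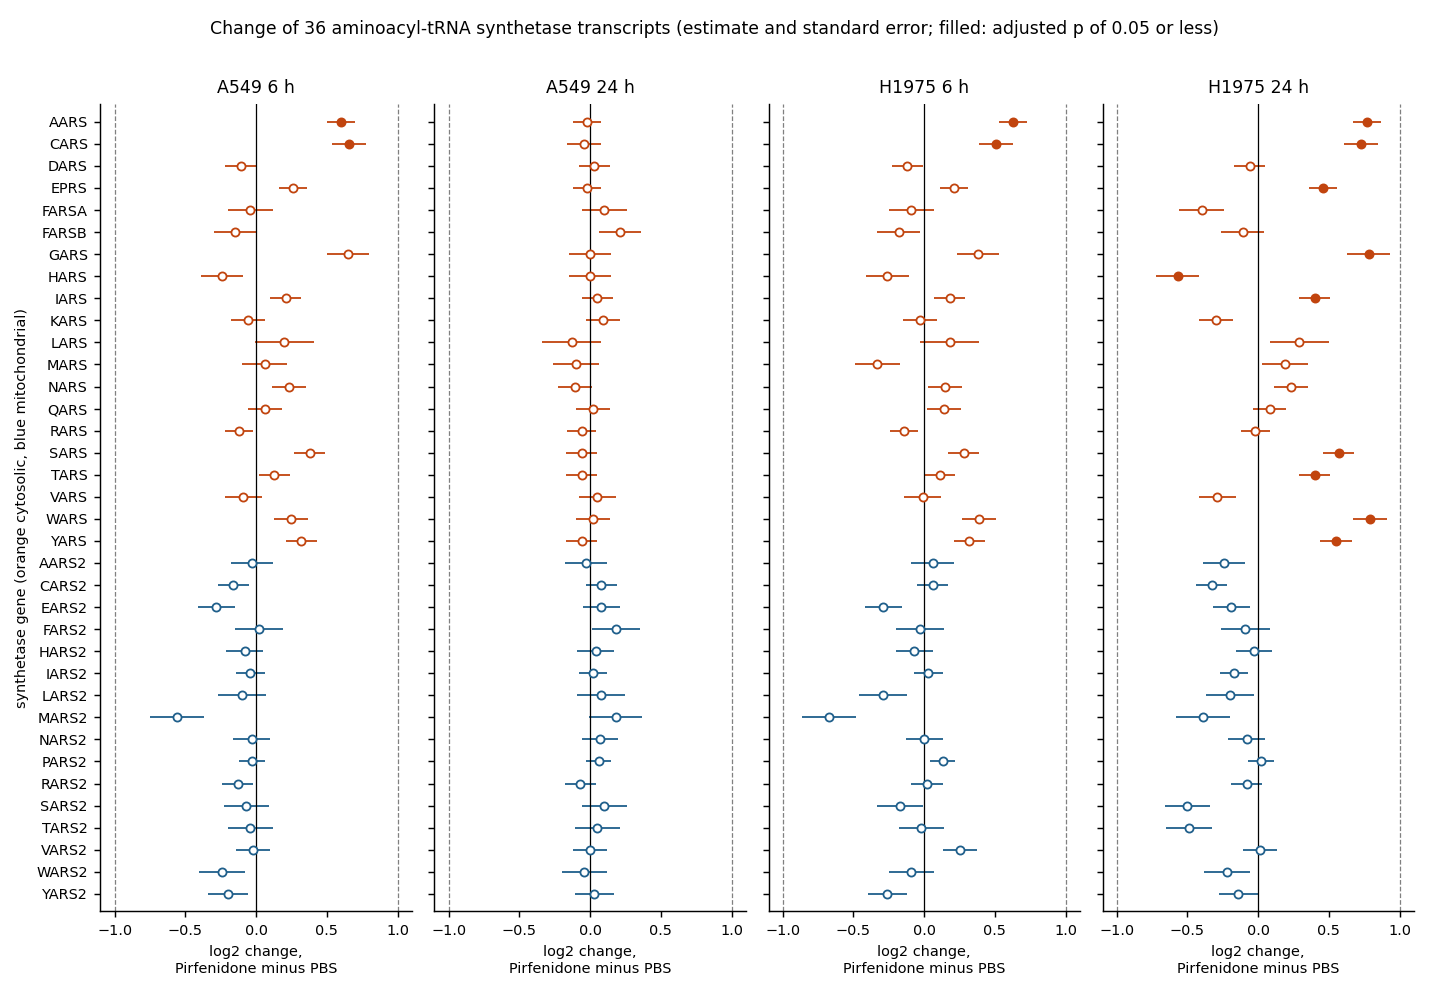
The log2 change (Pirfenidone minus PBS, horizontal axis) of each of the 36 synthetases is plotted with its standard error in the 4 comparisons, 3 against 3 arrays each. Filled points passed an adjusted p of 0.05 in limma and dashed lines mark a 2-fold change. In H1975 at 24 h 10 cytosolic points are filled, 9 of them to the right of 0, and in A549 at 24 h no point is filled.

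H1975 cells at 6 h had 2 synthetases that rose, AARS and CARS, and none that fell. Over all probes 1.41% passed the adjusted p in this comparison, 1.04% upwards and 0.365% downwards. AARS read 1.08, 1.13 and 1.14 with PBS and 1.74, 1.77 and 1.74 with Pirfenidone, so the arrays within a group differed by far less than the groups. Its change was 0.63 ± 0.10 (1.55-fold, limma adjusted p = 0.00347). CARS read -1.08, -0.85 and -0.95 with PBS and -0.43, -0.46 and -0.47 with Pirfenidone, a change of 0.51 ± 0.12 (1.42-fold, limma adjusted p = 0.0447). The CARS call was close to the limit and was lost when any 1 of 17 of the 24 arrays was left out, with limma adjusted p-values up to 0.177. At an unadjusted p under 0.05, 7 cytosolic members were higher and none lower, and 2 mitochondrial members, EARS2 and MARS2, were lower. The shares of all probes were 7.03% higher and 4.01% lower. WARS read 2.72, 2.72 and 2.58 with PBS and 3.12, 2.95 and 3.12 with Pirfenidone, a difference of 0.39 ± 0.12 with a limma adjusted p of 0.153. MARS2 read -5.16, -5.07 and -4.99 with PBS and -5.66, -5.61 and -5.97 with Pirfenidone. That difference of -0.67 ± 0.19 was the largest of a mitochondrial member in the 4 comparisons and missed the threshold (limma adjusted p = 0.0913). MARS, the cytosolic methionine enzyme, was not settled at 6 h, because its brighter probe gave -0.33 ± 0.16 and its dimmer probe 0.32 ± 0.20. The counterparts of the other named genes differed by 0.06 (AARS2), 0.06 (CARS2) and -0.09 (WARS2).

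A549 cells at 6 h had the same 2 synthetases past the adjusted p, AARS and CARS, against 0.34% of all probes, 0.218% upwards and 0.122% downwards. AARS read 1.26, 1.0 and 1.24 with PBS and 1.84, 1.62 and 1.85 with Pirfenidone, with replicate 2 the lowest in both groups. Its change was 0.60 ± 0.10 (1.52-fold, limma adjusted p = 0.0114), and the 3 pairs on 1 slide each gave 0.61, 0.58 and 0.62. CARS read -0.95, -1.04 and -0.76 with PBS and -0.34, -0.25 and -0.18 with Pirfenidone, a change of 0.66 ± 0.12 (1.58-fold, limma adjusted p = 0.0197). The AARS call was lost without PBS replicate 2 or Pirfenidone replicate 3, with adjusted p-values up to 0.0938 in limma. The CARS call was lost without PBS replicate 1 or 2 or Pirfenidone replicate 2 or 3, with values up to 0.153. GARS read 0.98, 0.97 and 1.11 with PBS and 1.48, 1.75 and 1.78 with Pirfenidone. Its difference of 0.65 ± 0.15 had a limma adjusted p of 0.0866. SARS read 3.40, 3.35 and 3.42 with PBS and 3.73, 3.75 and 3.82 with Pirfenidone, a difference of 0.38 ± 0.11 with a limma adjusted p of 0.227. At an unadjusted p under 0.05, 6 cytosolic members were higher and none lower, and again EARS2 and MARS2 were lower. The shares of all probes were 3.1% higher and 2.91% lower. AARS2, CARS2 and SARS2 differed by -0.03, -0.16 and -0.07.

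A549 cells at 24 h showed no synthetase past the adjusted p, and none at an unadjusted p under 0.05, in limma. Over all probes 0.0126% passed the adjusted p and 0.953% the unadjusted one. The 36 differences lay between -0.13 for LARS, the leucine enzyme, and 0.21 for FARSB, a subunit of the phenylalanine enzyme. FARSB had the smallest p of the 36 and read 0.71, 0.83 and 0.38 with PBS and 0.66, 1.23 and 0.68 with Pirfenidone (0.21 ± 0.15, limma adjusted p = 1.0). FARS2, the mitochondrial phenylalanine enzyme, and MARS2 each differed by 0.18, with standard errors of 0.17 and 0.19, and NARS, the asparagine enzyme, by -0.11 ± 0.12, all with groups that overlapped. AARS read 1.39, 1.30 and 1.5 with PBS and 1.40, 1.28 and 1.45 with Pirfenidone, and its difference of -0.02 had a 95% confidence interval from -0.24 to 0.20. For CARS the difference was -0.04 (-0.30 to 0.21) and for GARS 0.00 (-0.32 to 0.32). No member passed the adjusted p without the pair of replicate 3 either. In that pair AARS differed by -0.05 and CARS by -0.22, against 0.00 and -0.01 in the pair of replicate 1 and -0.01 and 0.10 in that of replicate 2.

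**Figure D2:**
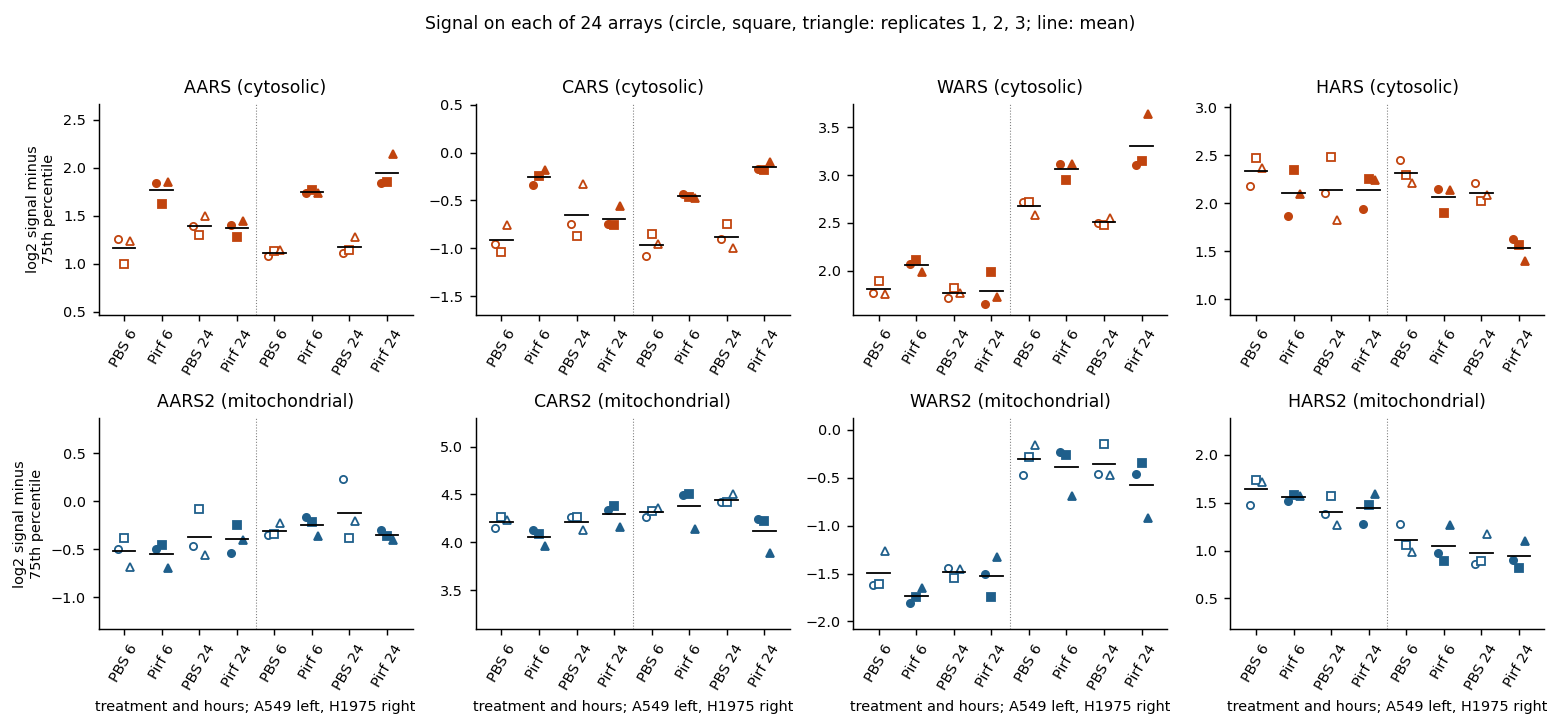
The log2 signal relative to the 75th percentile of the array (vertical axis, 2.2 units in every panel) is plotted for 4 cytosolic synthetases and their mitochondrial counterparts on 24 arrays, with A549 left and H1975 right of the dotted line. Open points are PBS, filled points Pirfenidone, symbols replicates and lines means. AARS and CARS lie higher with Pirfenidone at 6 h in both lines and at 24 h in H1975, HARS lies lower in H1975 at both times. Of the 4 counterparts, CARS2 (A549 at 6 h, H1975 at 24 h) and WARS2 (A549 at 6 h) lie lower with Pirfenidone without overlap.

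The classes were then set side by side over the 8 groups. The median log2 change of the 20 cytosolic genes was, for A549, 0.17 at 6 h and -0.01 at 24 h, and, for H1975, 0.14 at 6 h and 0.26 at 24 h. In the same order, the medians of the 16 mitochondrial genes were -0.08, 0.05, -0.03 and -0.18, and those of all probes -0.01, -0.02, 0.05 and 0.02. The cytosolic median for A549 at 6 h was 0.07 without PBS replicate 2, and that for H1975 at 6 h was 0.00 with the normexp background correction. Without the pair of replicate 3 the A549 medians at 24 h were -0.01 (cytosolic) and -0.09 (mitochondrial), so the mitochondrial one turned. Cytosolic members above 0 numbered 13, 9, 12 and 13 of 20, and mitochondrial members 1, 12, 6 and 2 of 16, against 47.0%, 41.0%, 59.0% and 52.9% of all probes. Treated and PBS arrays did not overlap, with treated higher, for 8, 0, 8 and 9 cytosolic genes, and with treated lower for 1, 0, 1 and 4. For the mitochondrial genes these counts were 0, 0, 1 and 0 higher and 4, 0, 4 and 5 lower. Over all probes the shares were 7.03%, 0.562%, 10.6% and 16.3% higher and 8.23%, 1.25%, 7.14% and 15.6% lower. No test was made of a class as a whole, so these medians and counts describe the lists.

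A level of each class on each array was taken as the median over its genes of the signal relative to the mean of the gene's 8 group means. For the cytosolic class in H1975 at 24 h the PBS arrays read -0.13, -0.08 and -0.02 and the Pirfenidone arrays 0.23, 0.29 and 0.29. The means of this class in H1975 were 0.08 at 6 h and -0.08 at 24 h with PBS, and 0.21 and 0.27 with Pirfenidone. The wider gap at 24 h thus came more from a lower PBS level than from a higher treated level. In A549 at 6 h the cytosolic arrays read -0.21, -0.36 and -0.16 with PBS and -0.08, -0.02 and 0.00 with Pirfenidone. The mitochondrial class in A549 at 6 h read 0.00, 0.03 and 0.02 with PBS and -0.08, -0.13 and -0.18 with Pirfenidone. The cytosolic level minus the mitochondrial level was -0.26 ± 0.11 (SD, n = 3) with PBS and 0.10 ± 0.09 with Pirfenidone in A549 at 6 h, and -0.10 ± 0.20 and -0.12 ± 0.15 at 24 h. In H1975 it was 0.05 ± 0.10 and 0.11 ± 0.12 at 6 h, and -0.10 ± 0.11 and 0.36 ± 0.10 at 24 h. These means were furthest apart, relative to their SD, in H1975 at 24 h and A549 at 6 h, while in H1975 at 6 h they differed by less than the SD. Among 17 pairs of a cytosolic and a mitochondrial enzyme for the same amino acid, the cytosolic change was the higher in 13 and 6 for A549 (6 h and 24 h), and in 12 and 13 for H1975. EPRS and FARS2 stand in 2 pairs each.

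**Figure D3:**
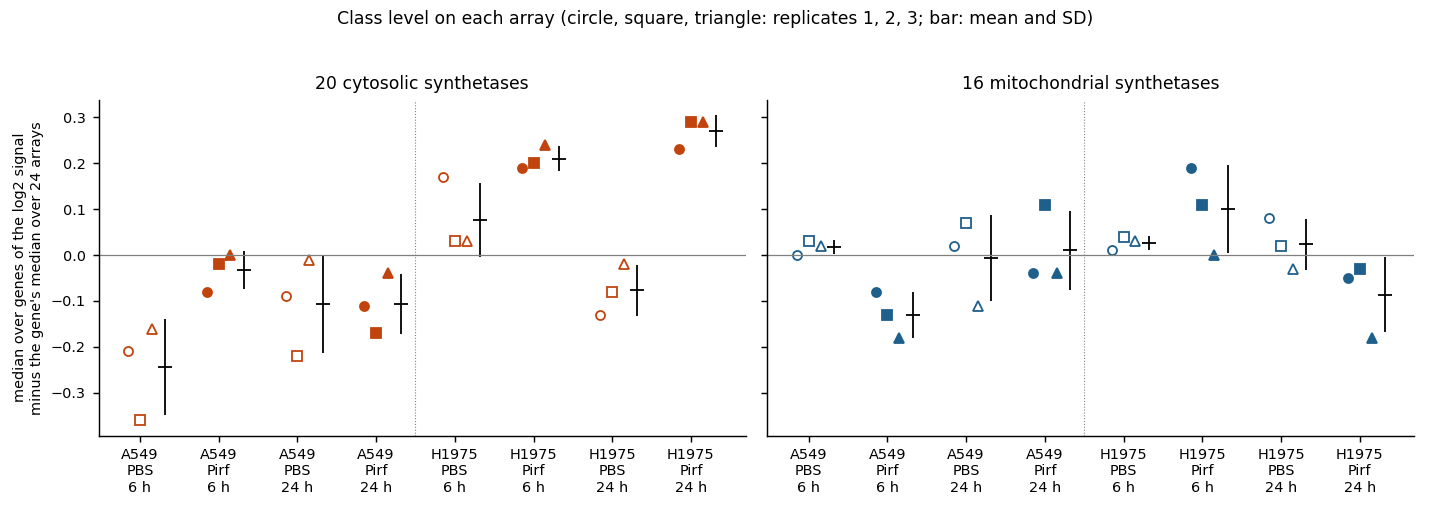
The level of the cytosolic (left) and mitochondrial (right) synthetases on each array is plotted for the 8 groups. It is the median over genes of the log2 signal relative to the mean of each gene's 8 group means. The axis label names the gene's median instead. Symbols are replicates, open for PBS and filled for Pirfenidone, and bars give the mean and SD. The cytosolic arrays with Pirfenidone in H1975 at 24 h, 0.23 to 0.29, lie above all PBS arrays of that line, and the mitochondrial values stay between -0.18 and 0.19.

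Cytosolic members were also counted by the assembly they belong to, with no test between the sets. A set of 8 (DARS, EPRS, IARS, KARS, LARS, MARS, QARS and RARS) are held in the multisynthetase complex, a large assembly of synthetases. In H1975 at 24 h 2 of the 8, EPRS and IARS, rose, and their median change was 0.14. Of the 12 cytosolic enzymes outside the complex, 7 rose and 1 fell, with a median of 0.47. Over all probes 2.91% rose and 3.35% fell in this comparison. Without treated replicate 3 only 3 of all the synthetases passed the adjusted p, so the counts by assembly and by fold rest in part on that array. KARS, the lysine enzyme of the complex, differed by -0.30 (95% confidence interval -0.55 to -0.04, limma adjusted p = 0.157), and RARS, the arginine enzyme, by -0.02. VARS, the valine enzyme, and FARSA, a subunit of the phenylalanine enzyme, both outside the complex, differed by -0.29 and -0.40 without passing the adjusted p. At 6 h the medians of the complex and of the others were 0.06 and 0.24 in A549 and 0.05 and 0.21 in H1975. By catalytic fold, 4 of 9 cytosolic class I enzymes rose in H1975 at 24 h, and 4 of 10 class II enzymes rose while 1 fell. EPRS combines both folds and is in neither count.

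The design also asks whether the drug change differed between lines or times, which was tested as a difference of differences in the same limma fit. No synthetase differed by 2-fold, against 0.0336% of all probes between lines at 6 h, 0.193% between lines at 24 h, 0.0294% between times in A549 and 0.0042% between times in H1975. By the adjusted p alone the shares were 0.0378%, 0.239%, 0.0294% and 0.00839%. At 24 h AARS passed the adjusted p alone. Its change was 0.77 in H1975 and -0.02 in A549, a difference of 0.79 ± 0.15 with a limma adjusted p of 0.0281. Without the A549 pair of replicate 3 the difference was 0.77 with an adjusted p of 0.10 by limma. The call was also lost without any 1 of 6 arrays at 24 h (A549 PBS replicates 1 and 3, A549 Pirfenidone replicate 1, H1975 PBS replicates 1 and 2, H1975 Pirfenidone replicate 3), with adjusted p-values up to 0.0943. CARS and WARS differed by 0.77 and 0.76 between lines at 24 h, both with a limma adjusted p of 0.0737. At an unadjusted p under 0.05, 9 cytosolic members were higher and 3 lower in H1975 in this comparison, and 4 mitochondrial members were lower, against 6.47% of all probes higher and 5.72% lower. At 6 h no member differed between lines at an unadjusted p under 0.05 in limma (2.63% of all probes did), and the largest difference was -0.40 for MARS. The dimmer MARS probe gave 0.06 ± 0.28 there. Between times no member passed the adjusted p in either line, while 3.04% of all probes in A549 and 5.86% in H1975 had an unadjusted p under 0.05 in limma. In A549 the change at 24 h minus that at 6 h was -0.62 for AARS (limma adjusted p = 0.259) and -0.70 for CARS (0.356), and 6 members passed an unadjusted p of 0.05. In H1975 3 members did so, CARS2, MARS and WARS, but the dimmer MARS probe gave 0.05 ± 0.28 (unadjusted p = 0.87 by limma).

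Without the drug the lines differed in some synthetases, a smaller share than that of all probes by the adjusted p and by the 2-fold limit. The probes tested include those above background in some group only, and so in 1 line only, whereas 35 members were above it on all 24 arrays. The 2 shares are therefore not like for like, and the smaller one is not a result about the members. With PBS at 6 h 18 of 36 members differed by the adjusted p, 14 higher and 4 lower in H1975, and 5 by at least 2-fold, against 58.6% (30.7% higher and 27.9% lower) and 32.4% of all probes. At 24 h 17 differed by the adjusted p and the same 5 by 2-fold, against 59.2% and 32.9%. FARSA read 1.58, 1.72 and 1.87 in A549 and 3.03, 3.10 and 3.08 in H1975 at 6 h, a 2.54-fold difference (log2 1.35 ± 0.16, limma adjusted p = 5e-07). LARS2, the mitochondrial leucine enzyme, read 0.16, -0.10 and 0.25 in A549 and 1.26, 1.46 and 1.46 in H1975 (2.45-fold). WARS2, the mitochondrial tryptophan enzyme, was 2.28-fold and TARS2 2.13-fold higher in H1975 in the same comparison. SARS2 went the other way, with 1.54, 1.46 and 1.62 in A549 and 0.11, 0.04 and -0.07 in H1975, a level 2.86-fold lower in H1975 (log2 -1.51 ± 0.16, limma adjusted p = 9.1e-08). At 24 h these 5 differences were 1.26, 1.11, 1.12, 1.07 and -1.43. Between 6 h and 24 h with PBS no member passed the adjusted p in either line, while 5 in A549 and 2 in H1975 had an unadjusted p under 0.05 in limma, against 8.49% and 10.6% of all probes. By the adjusted p 0.134% and 0.663% of all probes passed. MARS2 had the smallest p in both, with differences of -0.47 and -0.60.

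The promoters of the members were searched for the core TGATGNAA of the sequence that ATF4 binds. A RefSeq promoter (GRCh38.p14), 250 bases before to 50 after a start site, was found for 16 cytosolic and 14 mitochondrial members, and none was matched for DARS, LARS, VARS, YARS, AARS2 and VARS2. The search covered both strands. The core occurred for 7 of the 16 cytosolic members (AARS, CARS, GARS, IARS, MARS, NARS and TARS) and for 1 of the 14 mitochondrial members (YARS2), against 4.46% of 27305 genes with a promoter. In H1975 at 24 h the 7 cytosolic holders had a median change of 0.40, between 0.19 and 0.78, and 5 of them rose. The 9 cytosolic members without the core had a median of -0.02, between -0.57 and 0.79, and 3 rose (WARS, SARS and EPRS) and 1, HARS, fell. At 6 h the medians with and without the core were 0.23 and -0.04 for A549 and 0.18 and -0.03 for H1975. At the later time in A549 they were -0.04 and 0.02. YARS2 differed by -0.14 in H1975 at 24 h. Among amino acid genes known as ATF4 targets with a matched promoter, the core occurred for 1 of 5 synthesis genes and 4 of 7 transporters. It occurred for 0 of 9 mitochondrial translation factors. The E-box and the NRF1 element served as comparison. The E-box CACGTG occurred for 1 cytosolic (IARS) and 3 mitochondrial members (CARS2, EARS2 and MARS2), against 8.77% of genes. The NRF1 element occurred for 3 cytosolic and 3 mitochondrial members, against 6.98% of genes. A match is a description of letters, and the binding of a factor was not measured.

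**Figure D4:**
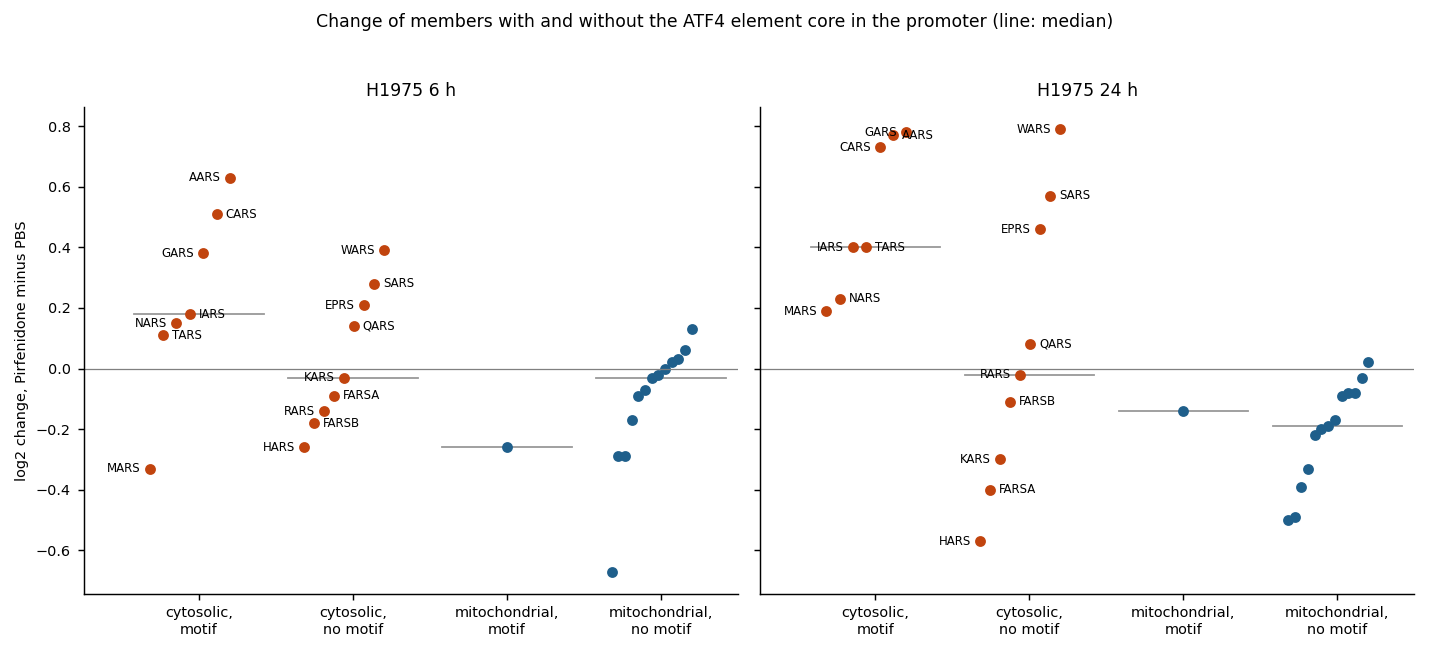
The log2 change (Pirfenidone minus PBS, vertical axis) in H1975 at 6 h and 24 h is plotted for synthetases with and without the core of the ATF4 element in the promoter, with a line at each median. At 24 h the 7 cytosolic holders all lie above 0, with a median of 0.40, and the 9 others spread from -0.57 to 0.79.

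Related gene lists were measured in the same fit. The integrated stress response list holds kinases that sense uncharged tRNA and other stresses, and factors and feedback genes that act downstream of them. Of its 14 genes, 3 rose at 6 h for A549, while for H1975 5 rose at 6 h and 7 at 24 h. None rose or fell at 24 h for A549, where none had an unadjusted p under 0.05 in limma either, and none fell in the other comparisons. Over all probes, 0.218% rose at 6 h in A549, and 1.04% at 6 h and 2.91% at 24 h in H1975, and these shares also stand beside the next lists. ATF4 itself changed by 0.75 ± 0.11 at 6 h and 0.69 ± 0.11 at 24 h in H1975 (limma adjusted p = 0.00165 and 0.00262). DDIT3, a stress transcription factor downstream of ATF4, rose by 2.19 in A549 at 6 h, and in H1975 by 2.08 at 6 h and 1.71 at 24 h. Of 8 amino acid synthesis genes known as ATF4 targets 3 and 0 rose for A549 at the earlier and later time, and 3 and 6 for H1975. In H1975 at 24 h ASNS, which makes asparagine, changed by 1.89, and PHGDH and PSAT1, of serine synthesis, by 1.93 and 1.30. Of 8 amino acid transporters known as ATF4 targets 1 and 0 rose for A549, and 3 and 6 for H1975, led by SLC7A11, the cystine carrier, at 2.18 and SLC1A4, a neutral amino acid carrier, at 1.54 in H1975 at 24 h. The median changes of these 3 lists in H1975 at 24 h were 0.66, 0.67 and 0.80, beside 0.26 for the cytosolic synthetases and 0.02 for all probes. In A549 at 24 h they were -0.04, -0.03 and -0.02, and their direction rested on the pair of replicate 3. That pair gave -0.44, -0.33 and -0.27, while the pair of replicate 1 gave 0.06, 0.04 and 0.10 and that of replicate 2 gave 0.15, 0.25 and 0.15.

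Lists of genes that work with the synthetases had few members past the adjusted p. In H1975 at 24 h, 3.35% of all probes were lower by the adjusted p and 10.8% by an unadjusted p under 0.05, and in H1975 at 6 h 7.03% were higher by the unadjusted p. Of 10 mitochondrial translation factors 1 fell in H1975 at 24 h, the elongation factor GFM1 (-0.50, limma adjusted p = 0.00937), and of 9 mitochondrial tRNA modification genes 1 fell, TRMU, which thiolates tRNA (-0.71, adjusted p = 0.016 by limma). Their medians there were -0.15 and -0.18, near the -0.18 of the mitochondrial synthetases. Of 4 genes of the amidotransferase that makes mitochondrial Gln-tRNA and of the formyltransferase of Met-tRNA, none passed the adjusted p in the 4 comparisons by limma, and 1 in H1975 at 24 h had an unadjusted p under 0.05. Of 9 scaffold and elongation partners of the cytosolic synthetases none passed either, with 2 lower at an unadjusted p under 0.05 in H1975 at 24 h. In the selenocysteine-tRNA route none of 4 genes passed, and 1 in H1975 at 6 h had an unadjusted p under 0.05. Of 3 measured genes that clear misformed aminoacyl- or peptidyl-tRNA 1 fell in H1975 at 24 h, PTRH2 (-0.44). The 20 mitosis genes all fell in H1975 at 24 h, with a median of -1.25, and none passed the adjusted p or an unadjusted p of 0.05 (limma) in the other comparisons, where the medians were -0.19, 0.14 and -0.17. The 0.14, of A549 at 24 h, rested on the pair of replicate 3 (1.51), and in the other pairs (-0.25 and -0.86) no gene was above 0.

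**Figure D5:**
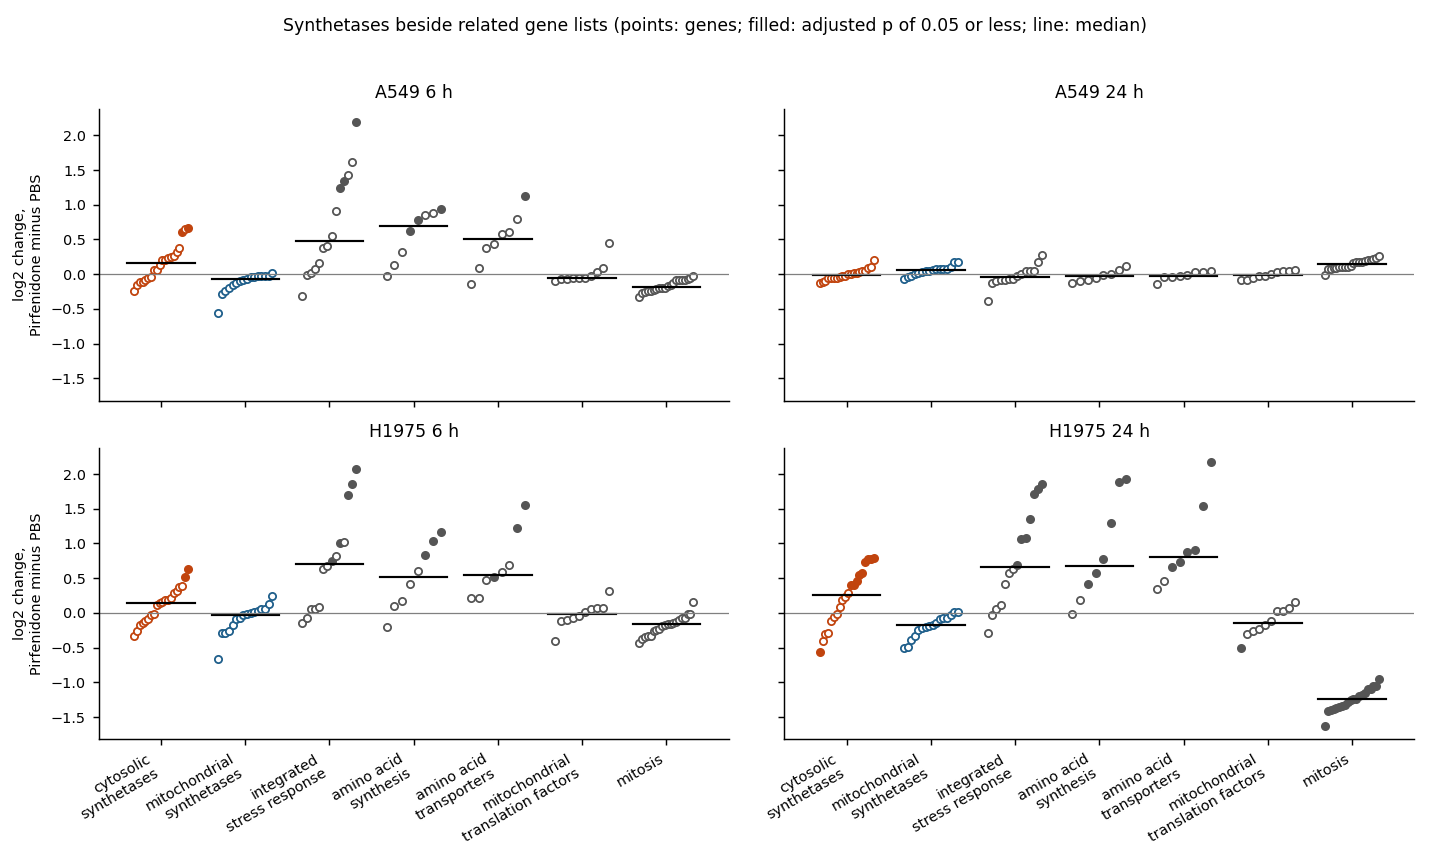
The log2 change (Pirfenidone minus PBS, vertical axis) of each gene is plotted for the cytosolic and mitochondrial synthetases and 5 other lists in the 4 comparisons, with filled points at an adjusted p of 0.05 or less and a line at each median. In H1975 at 24 h the median is 0.26 for cytosolic and -0.18 for mitochondrial synthetases and 0.80 for amino acid transporters, and the mitosis genes lie at -0.95 or below.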

How the data were processed

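Each of the 24 samples was 1 array. The deposited intensity values came from Agilent Feature Extraction 11.5.1.1, per the file headers, which subtracted background and gave a processed signal per spot. The deposited series table holds log2 values that the authors normalised to the 75 percentile and centred on the median of each probe, and it served as an alternative. From the spots, log2 of the processed signal minus the 75 percentile of the array was taken, outlier and control spots were left out and spots of a probe were averaged. Of 34127 probes, a test was made of the 23827 that some group had clearly above background on each of its 3 arrays, across all genes with limma 3.58.1 in R 4.3.3, in 1 fit of 8 groups (16 residual degrees of freedom, no block), with Benjamini-Hochberg adjustment. The limits were an adjusted p of 0.05 and a fold of 2. The count by adjusted p alone was added after seeing the data. Full values were given for members called or, where fewer than 4 were, for those with the smallest adjusted p up to 4, and for their mitochondrial counterparts. From other lists at most the 3 largest called changes each way were named. Other genes named (HARS, GARS at 24 h, ATF4, GFM1, TRMU and PTRH2 among them) were chosen after their values were seen. The members, lists and tests were chosen with earlier results of these data known. The labels do not say whether replicates were separate cultures. The study describes its data in general as coming from independent experiments where nothing else is stated, without naming these arrays. The p-values therefore measure the spread between these samples, which may be technical. The number of arrays limits the precision. The resampling adjustment of the study was not run. Scripts were tested on simulated data. Promoter sequences are not reported here.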

Additional observations from a re-analysis of the deposited data

Results flagged for a closer look

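The drug change of AARS at 24 h differed between the lines by 0.79 on the log2 scale (H1975 minus A549), by the test of the difference itself in limma (adjusted p = 0.0281). AARS was higher with Pirfenidone in 3 of 3 pairs in H1975. Without the A549 pair of replicate 3 at 24 h, whose mitosis genes stood apart, the difference was 0.77 with an adjusted p of 0.10. Over 13 settings the adjusted p ran from 0.00114 to 0.928 and the call was kept in 8.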

How the results depend on the processing

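No member past the adjusted p changed direction under any alternative run. Class medians near 0 crossed it. For A549 at 24 h the cytosolic median (-0.01) was 0.01 with normexp, and the mitochondrial one (0.05) was -0.09 without both arrays of replicate 3. With no fold limit, the members past the adjusted p were 2 (A549, 6 h), 2 (H1975, 6 h), 10 (H1975, 24 h), 1 (AARS, line difference at 24 h), and 18 and 17 (PBS levels between lines at 6 h and 24 h). The counts by adjusted p alone moved most. For A549 at 6 h they were 1 with normexp, 0 with only the arrays compared, 0 with Holm, 5 with slide as a random block and 4 with date as a block. For H1975 at 6 h they were 1 with normexp, 1 with the authors' table, 1 with no filter, 0 with only the arrays compared, 0 with Holm, 6 with the slide and 5 with the date. For H1975 at 24 h they were 5 with normexp, 1 with only the arrays compared, 1 with Holm and 16 with the date. Without both A549 arrays of replicate 3 at 24 h and with date as a block, an alternative chosen after seeing the data, they were 7, 10 and 21, and 3 members differed 2-fold between lines with PBS at 24 h. The class median for H1975 at 6 h was 0.00 (cytosolic) and -0.12 (mitochondrial) with normexp and -0.08 (mitochondrial) as a mean, and the mitochondrial median at 24 h was -0.16 with normexp and -0.22 with the authors' table. The cause was not tested.

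With each array left out in turn, the counts by adjusted p alone ran from 0 to 3 (A549, 6 h), 0 to 0 (A549, 24 h), 1 to 3 (H1975, 6 h) and 3 to 12 (H1975, 24 h, the 3 without Pirfenidone replicate 3 and the 12 without A549 PBS 24 h replicate 3). Cytosolic medians ran from 0.07 to 0.21 and -0.08 to 0.02 in A549, and 0.11 to 0.18 and 0.17 to 0.33 in H1975. Mitochondrial medians ran from -0.13 to -0.06 and -0.03 to 0.10 in A549, and -0.06 to 0.01 and -0.26 to -0.10 in H1975. The 2-fold counts between lines with PBS were 5 to 5 at 6 h and 4 to 5 at 24 h, and those of the drug comparisons 0 to 0. With the replicate block the counts by adjusted p alone were 3, 0, 2 and 12, and it moved no count over 1.5 times. In A549 a replicate number goes with 1 slide and date, and deviations of same-numbered arrays correlated at 0.70, 0.58 and 0.64 at 6 h and at 0.39, 0.08 and -0.10 at 24 h. In H1975 the numbers do not follow the date at 6 h (-0.48, 0.43 and -0.68), where the pairing by number was not borne out. Dim probes such as MARS2 limit what can be read.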
